A study of Mus musculus with 12 samples.

Results

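The genes described here were 10 members of the fibroblast growth factor (FGF) system, chosen by name. They comprised the receptors Fgfr1, Fgfr2, Fgfr3 and Fgfrl1, the ligands Fgf2, Fgf7 and Fgf18, and the Sprouty genes Spry1, Spry2 and Spry4. The platform annotation gave them 21 of the 45101 probe sets, and they were 10 of 18194 genes with a singly named probe set. A probe set was tested when its mean intensity reached 50 in at least 1 of 4 groups. This minimum was met by 14 of the 21 probe sets and 8 of the 10 genes, among 20897 probe sets in all, and the genes below it were Fgf2 and Fgf18.

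Primary chondrocytes from the tibiae, femurs and humeri of CD1 mouse embryos of embryonic day 15.5 were grown as monolayers. They were given 100 nM dexamethasone (DEX), a synthetic glucocorticoid, or DMSO as the vehicle control. RNA was taken at 6 and 24 hrs, which made 4 groups of 3 arrays (vehicle 6 hrs, DEX 6 hrs, vehicle 24 hrs and DEX 24 hrs). All groups shared the same medium with ascorbic acid and beta-glycerophosphate, and no group carried a genetic change that the labels name. Replicates were numbered 1, 2 and 4. The study's methods give independent experiments, while the labels give only the numbers, so p-values measure the spread between these arrays. Levels in such bulk RNA cannot tell fewer cells of a type from less RNA per cell.

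FGF ligands bind receptor tyrosine kinases at the cell surface together with heparan sulphate, and the receptors signal through the Ras, ERK and PI3K pathways. Sprouty proteins are induced by this signalling and dampen it from inside the cell. In the growth plate FGFR3 restrains chondrocyte proliferation, FGFR1 is known from prehypertrophic and hypertrophic cells, FGFR2 from the perichondrium and condensing mesenchyme, and FGF18 is a main ligand made around the cartilage.

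The DEX label was borne out by Tsc22d3 (GILZ), an established glucocorticoid target, which was higher in 6 of 6 pairs of same-numbered arrays, with a log2 difference of 3.48 (SE 0.23, n = 6 arrays per treatment, limma adjusted p = 1.00e-04) over both times. Of the chondrocyte markers 14 of 14 were above the minimum, as were 13 of 13 markers of tendon and perichondrial fibroblasts, 7 of 7 of skeletal muscle, 5 of 8 of macrophages and 1 of 6 of endothelium. At 24 hrs the summed chondrocyte markers ranged from 32066 to 47045 in vehicle and from 36293 to 46449 with DEX. The summed fibroblast markers ranged from 24439 to 25877 and from 21698 to 28900.1, so the treatments overlapped on both sums. By gene, 13 of 14 chondrocyte markers were above 0 in log2 difference at 24 hrs (median 0.22), and 5 of 13 fibroblast markers were (median -0.05). In limma 0 of them passed, while the fibroblast marker Postn passed, higher with DEX, with the pairs or the day as a block. The summed macrophage markers did not overlap, at 670.0 to 821 in vehicle and 528 to 657 with DEX, with a median log2 difference of -0.33 and 0 of 5 genes passing in limma. The summed osteoblast markers ranged from 196 to 232 and from 225 to 500.0 (median log2 difference 1.57, 3 of 5 genes tested, 0 passing in limma), and those of muscle from 554 to 1479 and from 478 to 1030.1. With the day as a block, the osteoblast marker Dmp1 passed, higher, and the muscle marker Myod1 passed, lower, at 24 hrs. The osteoblast marker Ifitm5 passed, higher, over both times with the pairs as a block. The part of these cell types in the results at 24 hrs was not tested. The 4 arrays of replicates 1 and 2 at 6 hrs, hybridized on day 3 of 4 hybridization days, stood apart from the other 8. On them the log2 difference between the 3′ and 5′ Gapdh control probe sets was 0.49 to 0.74, against -0.33 to -0.22 on the others. All 6 hrs arrays were hybridized on days 3 and 4 and all 24 hrs arrays on days 1 and 2, so time and hybridization day cannot be told apart. Each day held DEX and vehicle alike.

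The promoters of Fgfr2, Fgfr3 and Spry2 are shown because these genes had the smallest p-values of the members in the DEX comparisons, by the probe set of each gene with the highest mean. Another probe set, Fgfr1 1436551_at, had a limma unadjusted p of 0.0107 at 24 hrs. Each stretch holds the 250 bases before the annotated start in RefSeq (GRCm38.p6), with CG dinucleotides in capitals. The Fgfr2 stretch lies at chr7:130266809-130267058 on the minus strand, that of Fgfr3 at chr5:33721474-33721723 on the plus strand and that of Spry2 at chr14:105896820-105897069 on the minus strand.
Fgfr2: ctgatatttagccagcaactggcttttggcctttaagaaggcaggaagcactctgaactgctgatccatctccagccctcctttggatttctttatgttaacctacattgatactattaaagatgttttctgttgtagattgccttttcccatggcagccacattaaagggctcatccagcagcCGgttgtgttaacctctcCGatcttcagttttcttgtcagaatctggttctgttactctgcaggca
Fgfr3: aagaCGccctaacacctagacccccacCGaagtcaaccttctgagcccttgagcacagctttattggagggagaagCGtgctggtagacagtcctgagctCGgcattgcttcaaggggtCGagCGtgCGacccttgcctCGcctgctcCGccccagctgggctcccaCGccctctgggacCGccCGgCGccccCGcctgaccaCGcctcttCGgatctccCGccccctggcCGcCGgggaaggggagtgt
Spry2: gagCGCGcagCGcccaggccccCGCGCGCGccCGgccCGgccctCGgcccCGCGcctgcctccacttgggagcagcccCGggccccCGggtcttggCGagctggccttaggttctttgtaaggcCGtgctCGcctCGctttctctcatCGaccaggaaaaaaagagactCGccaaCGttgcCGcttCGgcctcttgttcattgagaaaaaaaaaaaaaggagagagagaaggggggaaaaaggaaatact
The Fgfr2 stretch held 2 CG dinucleotides, the Fgfr3 stretch 19 and the Spry2 stretch 23, against a median of 6 over 32851 promoters. RefSeq promoters were matched for 8 of the 10 members, in 9 stretches, and Fgfr1 and Spry4 were not matched. On both strands, none of the 9 stretches held the full glucocorticoid response element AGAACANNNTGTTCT, which is in 0.00913% of all promoters, or its shorter form GNACANNNTGTNC, which is in 0.387%. The GC box GGGCGG, in 32.7% of all promoters, occurred in stretches of Fgfr3, Fgfrl1, Fgf2, Fgf18 and Spry1, and the ETS motif CCGGAAGT, in 2.88%, only in that of Fgfrl1 among the members. These matches are a description of the letters.

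No member passed an adjusted p of 0.05 for DEX against vehicle in limma's test. The count was 0 of 8 genes in each of the comparisons (6 hrs, 24 hrs, and the mean of the times), while 0.225%, 0.287% and 0.747% of all probe sets tested passed. At an unadjusted p of 0.05, 0 of 8 member genes passed at 6 hrs, 1 (Spry2) at 24 hrs and 0 over both times, against 3.66%, 6.24% and 5.65% of all probe sets. By probe set 0, 2 and 0 of 14 passed. The 2 at 24 hrs were that of Spry2 and Fgfr1 1436551_at (limma unadjusted p = 0.0107). The replicate numbers were taken to pair the DEX and vehicle arrays within a time point, which the labels do not state. With the pairs as a block the share of all probe sets called was higher, at 0.904%, 2.15% and 3.20%, and blocking on hybridization day gave 0.948%, 2.18% and 2.87%. Under either block, and in the test named by the study's methods, 0 of 8 members passed. Unadjusted p-values under 0.05 were found with this pair block for Fgfr2 at 6 hrs, for Fgfr2, Fgfr3 and Spry2 at 24 hrs, and for Fgfr2 and Fgfr3 over both times, against 11.3%, 17.1% and 14.7% of all probe sets. By probe set these were 3, 5 and 5 of 14. The median log2 difference over the 8 genes was 0.03 at 6 hrs and 0.05 at 24 hrs, beside -0.01 and -0.03 over all probe sets tested. The median size, regardless of sign, was 0.20 and 0.24 for the members and 0.14 and 0.17 for all probe sets.

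**Figure D1:**
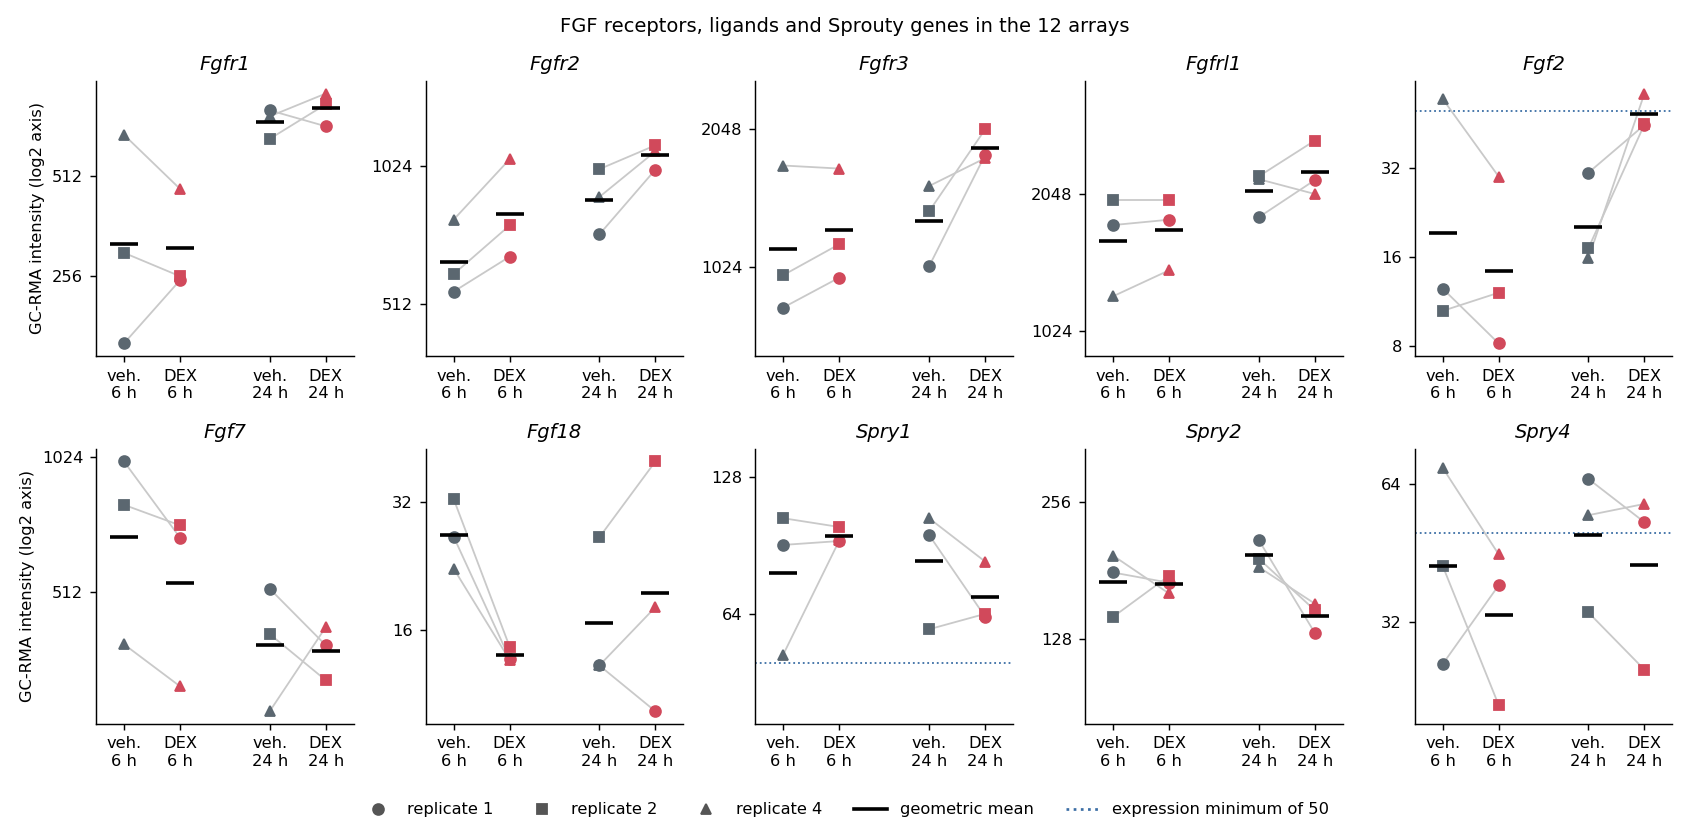
GC-RMA intensity (log2 axis) of the 10 member genes on the 12 arrays, by treatment and time, with grey lines joining arrays of the same number, black bars for the geometric mean of 3 arrays and a dotted line at the expression minimum of 50. The Fgfr2 line slopes upward in 6 of 6 pairs, the DEX and vehicle points of Fgfr3 and Spry2 do not overlap at 24 hrs, and most points of Fgf2 and all of Fgf18 lie under 50.

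Fgfr2, a receptor of which a splice form binds FGF7, was higher with DEX on every pair of arrays. Its probe set 1433489_s_at read 544, 594 and 782 in vehicle at 6 hrs (replicates 1, 2 and 4) and 649, 760.0 and 1061 with DEX. At 24 hrs it read 726, 1009 and 877 in vehicle and 1007, 1138 and 1104 with DEX. The groups overlapped at both times, since DEX values of some pairs lay under the vehicle values of others. The log2 difference was 0.35 (SE 0.22, n = 3 per group) at 6 hrs, 0.33 (SE 0.22) at 24 hrs and 0.34 (SE 0.15, limma adjusted p = 0.895) over both times, a 1.26-fold difference with a 95% interval of 0.998 to 1.60. The adjusted p over both times was 0.0772 when the pairs were a block and 0.0947 when the day was. A second probe set, 1420847_a_at, was also higher in 6 of 6 pairs (log2 difference 0.34, SE 0.42, limma adjusted p = 1.00). Of the 14 member probe sets tested, these 2 of Fgfr2 were higher with DEX in 6 of 6 pairs, against 4.29% of all probe sets, and 0 were lower in 6 of 6 pairs, against 4.71%. Within hybridization days the difference for 1433489_s_at was 0.17 and 0.40 at 24 hrs (days 1 and 2) and 0.30 and 0.44 at 6 hrs (days 3 and 4).

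Fgfr3, the receptor whose activating mutations cause achondroplasia, did not overlap between the treatments at 24 hrs. Its probe set 1421841_at read 1026, 1354 and 1539 in vehicle at 24 hrs and 1800.1, 2048 and 1771 with DEX. All DEX arrays lay above all vehicle arrays. The log2 difference was 0.54 (SE 0.29, limma adjusted p = 0.911), a 1.45-fold difference with a 95% interval of 0.932 to 2.26. Blocking on the pairs gave an adjusted p of 0.116. At 6 hrs the vehicle values of 834, 982 and 1707 and the DEX values of 970.0, 1148 and 1681 overlapped, with a log2 difference of 0.14 (SE 0.29). The second probe set, 1425796_a_at, read 149, 190.0 and 206 in vehicle and 297, 361 and 373 with DEX at 24 hrs, again without overlap. Its log2 difference of 0.93 (SE 0.85, limma adjusted p = 1.00) was a 1.90-fold difference with a 95% interval of 0.516 to 7.02. Its SE was 0.20 and its adjusted p 0.0670 when limma took the pairs as a block. The SE of 0.85 came from 1 spread shared by all 4 groups. It thus also holds that of the 6 hrs arrays, which read 29.5, 37.1 and 328 in vehicle. The difference of the DEX effect of Fgfr3 between 24 and 6 hrs, 0.40 on the log2 scale, did not pass, nor did that of any other member gene, with 0% of all probe sets called in limma. At an unadjusted p of 0.05 this difference passed for 0 of 8 member genes and 3.63% of all probe sets. Of the 14 member probe sets 1 passed at this level, Fgfr1 1436551_at (limma unadjusted p = 0.00500). At 24 hrs 5 of 14 member probe sets had no overlap between the treatments, 3 higher and 2 lower with DEX. This was also the case for 8.45% of all probe sets upward and 10.9% downward. The summed markers of hypertrophic chondrocytes ranged from 4551 to 6994 in vehicle and from 6956 to 8521 with DEX at 24 hrs, which overlapped narrowly. Of these markers 5 of 5 were above 0 in log2 difference (median 0.64) and 0 of 5 passed in limma, while Alpl passed with the pairs as a block and Ihh and Ibsp with the day. Their part in the Fgfr3 values was not tested.

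Fgfr1, the third signalling receptor, gave different readings by probe set. Probe set 1424050_s_at read 161, 301 and 680.0 in vehicle and 249, 256 and 468 with DEX at 6 hrs, then 805, 661 and 772 in vehicle and 721, 839 and 904 with DEX at 24 hrs. The treatments overlapped at both times, with log2 differences of -0.05 and 0.14 (SE 0.43 for both). Probe set 1436551_at read 120.0, 113 and 103 in vehicle and 93.1, 66.8 and 59.8 with DEX at 24 hrs, with every DEX array lower, and 62.9, 66.8 and 47.1 against 75.8, 67.6 and 86.9 at 6 hrs, with every DEX array higher. Its log2 difference was -0.64 (SE 0.21, limma adjusted p = 0.505) at 24 hrs and 0.39 (SE 0.21, limma adjusted p = 1.00) at 6 hrs. At 6 hrs it was the 1 member probe set of 14 without overlap, against 6.00% of all probe sets. For it and for 1425911_a_at all 3 pairs were higher at 6 hrs and all 3 lower at 24 hrs. Of all probe sets 5.87% had 3 pairs one way at 6 hrs and 3 the other way at 24 hrs. The probe sets 1424050_s_at and 1436551_at thus opposed each other at 24 hrs, and no direction is given for the gene.

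Fgfrl1, a receptor-like protein without the kinase domain that binds FGF ligands, differed little between the treatments. Probe set 1447878_s_at read 1749, 1982 and 1221 in vehicle and 1797, 1982 and 1392 with DEX at 6 hrs, and 1819, 2236 and 2205 against 2194, 2678 and 2046 at 24 hrs. The ranges overlapped at both times. The log2 difference over both times was 0.11 (SE 0.15, limma adjusted p = 1.00) with a 95% interval of -0.23 to 0.45. This leaves a difference of up to about that size undetected by this probe set. The second probe set, 1451912_a_at, was higher in 5 of 6 pairs. It gave 0.07 (SE 0.37) over both times, with a wider interval of -0.74 to 0.88.

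**Figure D2:**
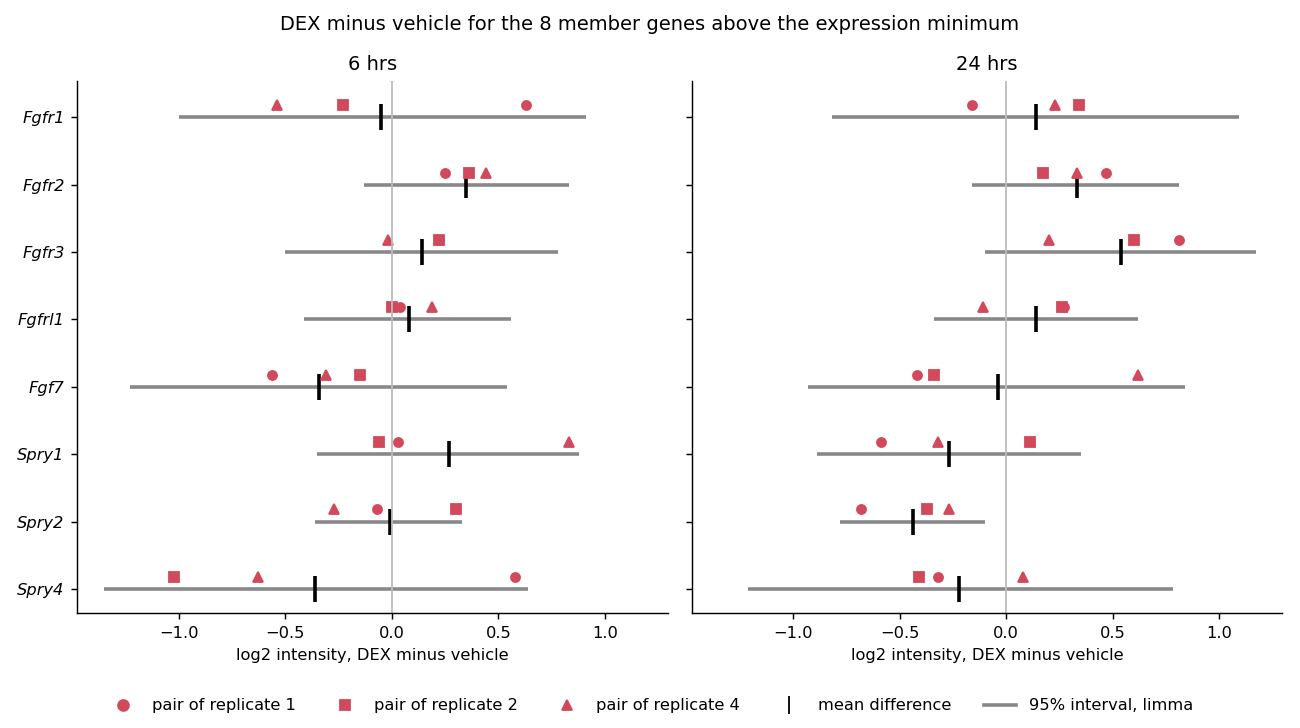
Log2 intensity of DEX minus vehicle at 6 and 24 hrs for the 8 member genes tested, with points for the 3 pairs of same-numbered arrays, a black tick for the mean difference and a grey bar for limma's 95% interval. The interval of Spry2 at 24 hrs, -0.78 to -0.10, does not cross 0, its adjusted p was 0.605, and the intervals of the other genes cross 0.

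Among the ligands, Fgf7, a paracrine ligand that acts through a splice form of FGFR2, was the 1 tested. Probe set 1438405_at read 1000.4, 801 and 392 in vehicle and 677, 721 and 316 with DEX at 6 hrs. It read 521, 413 and 278 in vehicle and 390.0, 326 and 428 with DEX at 24 hrs. It was lower with DEX in 5 of 6 pairs, and the groups overlapped at both times. The log2 difference was -0.34 (SE 0.40) at 6 hrs and -0.04 (SE 0.40) at 24 hrs (limma adjusted p = 1.00 for both). The second probe set, 1422243_at, was likewise lower in 5 of 6 pairs, with -0.38 (SE 0.26) at 6 hrs and -0.12 (SE 0.26) at 24 hrs.

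Fgf2, a basic ligand stored in cartilage matrix, had a highest group mean of 48.9 and so stayed just under the minimum. It read 30.8, 17.1 and 15.8 in vehicle and 44.7, 44.9 and 57.1 with DEX at 24 hrs, all DEX arrays being higher. Of the probe sets tested, which leave out Fgf2, 8.45% were higher without overlap at 24 hrs. That share was not computed for probe sets under the minimum. At 6 hrs the values of 12.5, 10.5 and 54.8 in vehicle and 8.15, 12.1 and 29.9 with DEX overlapped. In the fit without an expression minimum the log2 difference at 24 hrs was 1.26 (SE 0.64, limma adjusted p = 0.956), on intensities under the minimum.

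Fgf18, the perichondrial ligand, stayed lower still, with a highest group mean of 27.1. At 6 hrs it read 26.5, 32.5 and 22.3 in vehicle and 13.7, 14.6 and 13.6 with DEX. The DEX arrays were all lower then. Of the probe sets tested, which leave out Fgf18, 6.00% had no overlap at 6 hrs in either direction. The share among probe sets under the minimum was not computed. At 24 hrs, with 13.2, 26.4 and 13.2 in vehicle and 10.3, 39.8 and 18.1 with DEX, the treatments overlapped. Without an expression minimum the difference at 6 hrs was -0.94 (SE 0.45, limma adjusted p = 1.00).

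Spry2, an inhibitor of receptor tyrosine kinase signalling, was the member gene that passed an unadjusted p of 0.05 at 24 hrs by its probe set with the highest mean (limma adjusted p = 0.605). Probe set 1436584_at read 211, 192 and 184 in vehicle and 132, 148 and 153 with DEX at 24 hrs. Every DEX array lay below every vehicle array, and the log2 difference was -0.44 (SE 0.16), a ratio of 0.737 with a 95% interval of 0.581 to 0.936. The pair block gave an adjusted p of 0.190. At 6 hrs it read 179, 143 and 195 in vehicle and 170.0, 176 and 161 with DEX, which overlapped, and the difference was -0.01 (SE 0.16).

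Spry1, a related inhibitor, read 90.9, 104 and 52.3 in vehicle and 92.7, 99.5 and 93.0 with DEX at 6 hrs, and 95.6, 59.4 and 104 against 63.3, 64.2 and 83.6 at 24 hrs. The treatments overlapped at both times, with log2 differences of 0.27 and -0.27 (SE 0.28 for both). The pair of replicate 4 alone, on hybridization day 4, gave 0.83 at 6 hrs.

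Spry4, the third Sprouty gene, was barely above the minimum, with a highest group mean of 51.3. Probe set 1440867_at read 25.8, 42.4 and 69.5 in vehicle and 38.4, 21.0 and 44.9 with DEX at 6 hrs, and 65.7, 33.5 and 54.7 against 52.8, 25.1 and 57.9 at 24 hrs. The ranges overlapped, and the log2 differences were -0.36 and -0.22 (SE 0.45 for both, limma adjusted p = 1.00).

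The genes whose log2 intensity ran most like that of Fgfr2, the member with the largest moderated t over both times (2.18), were Pik3r1, Ctxn3 and Ehd3. Their Pearson correlations with it were 0.980, 0.970 and 0.954 over 12 arrays, after centring on each hybridization day, among 11052 genes. The arrays share treatment, day and RNA, so these values are a description. Without centring the correlation was -0.0627 for Pik3r1, 0.712 for Ctxn3 and 0.899 for Ehd3.

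Other parts of the pathway were described from lists of genes. Of 19 other FGF ligands, 1 was above the minimum, Fgf13, an intracellular family member that does not bind the receptors, and it did not pass (log2 difference over both times -0.04, SE 0.11, limma adjusted p = 1.00). Of 20 co-receptors and FGF-binding proteins 16 were tested and 0 passed in any of these comparisons, with 1, 2 and 2 at an unadjusted p of 0.05 and median log2 differences of 0.14, -0.03 and 0.01. The smallest p was that of Ncam1, an adhesion molecule that can bind FGF receptors. It read 354, 278 and 204 in vehicle and 503, 405 and 317 with DEX at 6 hrs, and 137, 161 and 195 against 301, 319 and 256 at 24 hrs. The treatments overlapped at 6 hrs and did not at 24 hrs. The log2 difference over both times was 0.70 (SE 0.17, limma adjusted p = 0.149), and it passed with the pairs (0.0177) or the day (0.0136) as a block. At 24 hrs alone it also passed under these blocks (0.0420 and 0.0388), and at 6 hrs it did not (0.217 and 0.254).

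Of 28 genes of intracellular FGF signalling 21 had a singly named probe set and were tested, and 0 passed at either time or over both times, with 1 each time at an unadjusted p of 0.05. The median log2 difference was 0.07 at 6 hrs and -0.08 at 24 hrs. The 1 gene that stood out was Pik3r1, which encodes the regulatory subunit p85 alpha of PI3K. It read 185, 223 and 139 in vehicle and 292, 404 and 239 with DEX at 6 hrs, and 86.8, 127 and 121 against 191, 206 and 217 at 24 hrs. No DEX array lay below a vehicle array of its time. The log2 difference over both times was 0.83 (SE 0.17, limma adjusted p = 0.0651), higher in 6 of 6 pairs, and it passed with the pairs (0.00369) or the day (0.00608) as a block over both times, with the stricter expression minimum of 100 (0.0491) and without replicate 4 of DEX 6 hrs (0.0410). At the single times it passed in limma with the pairs at 6 hrs (0.0448) and 24 hrs (0.0174), and with the day at 24 hrs (0.0335) but not at 6 hrs (0.104). The adaptor and Ras pathway genes Grb2, Sos1 and Map2k1 had differences of -0.01, -0.28 and -0.14 at 24 hrs and did not pass, Sos1 being lower in 6 of 6 pairs. These 3 genes were picked with their values known.

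Of 12 other feedback inhibitors 10 were tested and 0 passed at any time, with 0, 0 and 2 at an unadjusted p of 0.05 and median log2 differences of -0.14, -0.08 and -0.16. Sulf2, a sulphatase that edits heparan sulphate, had the smallest p, with a log2 difference of 0.40 (SE 0.13, limma adjusted p = 0.463) over both times and higher values in 6 of 6 pairs. Dusp6, the ERK phosphatase that is often read as a sign of FGF signalling and is named here with its values known, had differences of -0.36 and -0.40 (SE 0.37 for both) at 6 and 24 hrs. It was lower in 6 of 6 pairs and did not pass.

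Among 12 genes that respond to ERK signalling 10 were tested. At an adjusted p of 0.05 in limma 1, Ier3, fell, at 6 hrs and over both times, while 0 rose. At an unadjusted p of 0.05, 3, 2 and 3 of 10 passed at 6 hrs, 24 hrs and over both times. The median log2 differences were -0.38, -0.24 and -0.30, with 1, 3 and 3 of 10 genes above 0. Ier3 is an immediate early gene that is also under NF-kB control. It read 1201, 895 and 945 in vehicle and 498, 459 and 331 with DEX at 6 hrs, and 828, 752 and 641 against 480.0, 403 and 470.0 at 24 hrs. Every DEX array lay below every vehicle array. The log2 difference was -1.25 at 6 hrs (SE 0.20, limma adjusted p = 0.0348). It was -0.71 at 24 hrs (SE 0.20, limma adjusted p = 0.327) and -0.98 over both times (SE 0.14, limma adjusted p = 0.00790). The call at 6 hrs was lost when any 1 of the 12 arrays was left out (adjusted p from 0.0537 to 0.164), and that over both times held in each case. Without an expression minimum neither call held (adjusted p of 0.192 and 0.0541), nor did either in the test named by the study's methods (1.00 and 0.0628), and median centring ended that at 6 hrs (0.0723). Fosl1, which encodes an AP-1 subunit, and Phlda1, an apoptosis-related gene, named with their values known, had differences of -0.90 (SE 0.19, limma adjusted p = 0.0788) and -0.86 (SE 0.25, adjusted p = 0.281) over both times. Both passed with the pairs as a block (0.0177 and 0.0311) and with the day (0.0418 and 0.0270). Without replicate 4 of vehicle 24 hrs, Fosl1 passed at 24 hrs and over both times. Egr1, Myc and Ccnd1, also named with their values known, did not pass at any time, and Egr1 was lower in 6 of 6 pairs.

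Of 12 growth plate genes linked to FGFR3 10 were tested and 0 passed at any time, with 0, 2 and 0 at an unadjusted p of 0.05. The median log2 difference was 0.10 at 6 hrs and 0.36 at 24 hrs. Ihh, the prehypertrophic hedgehog ligand that FGFR3 signalling represses, read 94.6, 99.0 and 64.8 in vehicle and 158, 176 and 158 with DEX at 24 hrs. The DEX arrays were all higher. The difference was 0.95 (SE 0.39, limma adjusted p = 0.706), and the adjusted p was 0.0611 with the pairs and 0.0421 with the day as a block. Pth1r, the receptor of parathyroid hormone-related protein, named with its values known, read 416, 390.0 and 373 in vehicle and 626, 779 and 783 with DEX at 24 hrs, without overlap. Its difference of 0.89 (SE 0.43, limma adjusted p = 0.851) passed with the pairs (0.0196) or the day (0.00648) as a block, as did that over both times (0.0337 and 0.0152). Ihh is also 1 of the hypertrophic markers summed above.

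**Figure D3:**
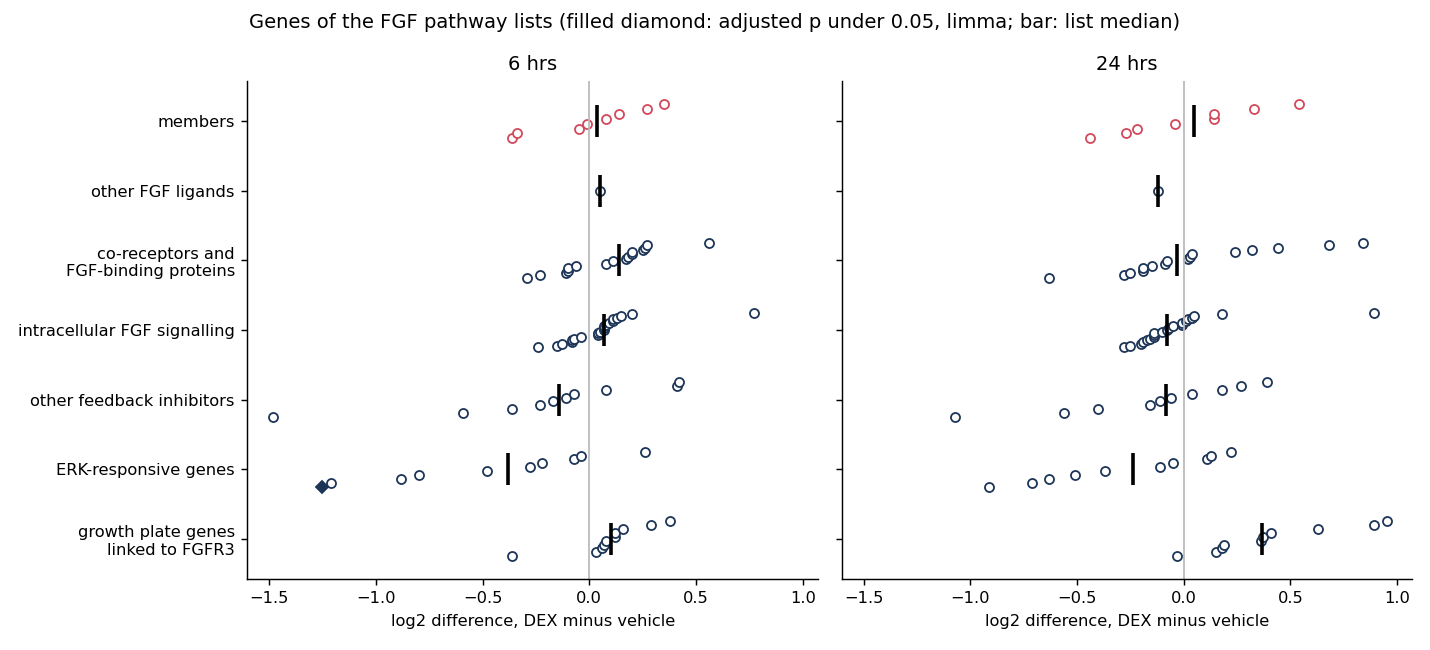
Log2 difference of DEX minus vehicle at 6 and 24 hrs for the 8 members tested and for the tested genes of the pathway lists, with 1 point per gene, a black bar at each list's median and a filled diamond for an adjusted p under 0.05. Ier3 at 6 hrs, at -1.25, is the 1 filled diamond, and the members lie between -0.44 and 0.54 at both times.

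Between 24 and 6 hrs in vehicle 0 of 8 members passed in limma's test, as did 0.00957% of all probe sets, and at an unadjusted p of 0.05 1 member (Fgfr1) and 30.5% of all probe sets passed. At that level 5 of 14 member probe sets passed. Fgfr1 was higher at 24 hrs by 1.21 on the log2 scale (SE 0.43, limma adjusted p = 0.115) for 1424050_s_at. Fgf7 was lower, at -0.80 (SE 0.40, limma adjusted p = 0.195), for 1438405_at. Its other tested probe set, 1422243_at, went the other way, at 0.15 (SE 0.26, limma adjusted p = 0.679). Without replicate 4 of vehicle 6 hrs, the 1 vehicle array of day 4, Fgfr1 (1424050_s_at) and Fgf7 (1438405_at) passed in limma. Their differences were 1.76 (adjusted p = 0.0192) and -1.20 (adjusted p = 0.0357). However, 31.7% of all probe sets also passed, against these 2 of 8 members. By probe set 7 of 14 passed there. Without the 4 arrays of day 3 the Fgfr1 difference was 0.13. For Fgfr1 1436551_at the difference was 0.94 (SE 0.21, limma adjusted p = 0.0611). It passed with the replicate number as a block across the times (0.0399), as did 6.61% of all probe sets. That block joins arrays of 6 and 24 hrs by number, which their correlations across times did not bear out. The median over all probe sets was 0.13 in this comparison.

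**Figure D4:**
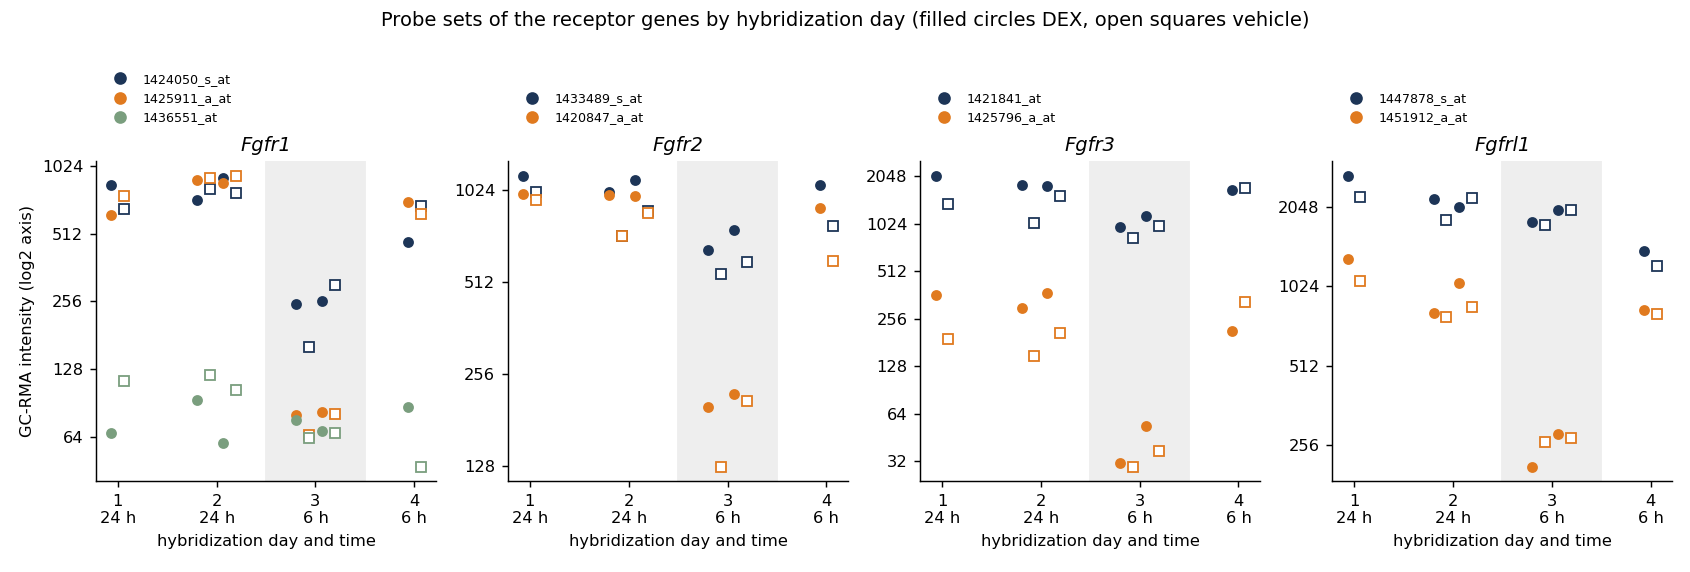
GC-RMA intensity (log2 axis) of the tested probe sets of the 4 receptor genes by hybridization day, with filled circles for DEX, open squares for vehicle and shading for day 3. Levels of different probe sets are not comparable with each other. The orange probe set of each gene reads lowest on the 4 arrays of day 3, by 3.61-fold to 10.1-fold on average.

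On the 4 arrays of day 3 some receptor probe sets read lower than on the others. On day 3 all 4 arrays lay below the other 8 for 6 of 14 member probe sets, against 24.7% of all probe sets, and by at least 2-fold on average for 5 of 14, against 13.9%. Fgfr1 1425911_a_at read 65.3 to 82.2 on day 3 and 622 to 923 elsewhere, which is 10.1-fold. The fold was 6.84 for Fgfr3 1425796_a_at, 4.67 for Fgfr2 1420847_a_at and 3.61 for Fgfrl1 1451912_a_at. It was 3.05 for Fgfr1 1424050_s_at, the probe set that stood for Fgfr1 in the tests. Each of these genes had another probe set with a smaller difference, which was 0.27 on the log2 scale for Fgfr1 1436551_at and 0.03 for Fgfrl1 1447878_s_at, as the plot of receptor probe sets by day shows. Fgf7 1438405_at read higher on day 3, at 677 to 1000.4 against 278 to 521 elsewhere. Fgf7 1422243_at read lower on day 3, at 132 to 196 against 216 to 318. The day 4 arrays were also from 6 hrs. They read above those of day 3 on the 5 probe sets that were at least 2-fold lower on day 3. The Gapdh 3′ to 5′ values given above moved with day 3, and their part in these differences was not tested.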

How the data were processed

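RNA of 12 cultures was measured on Affymetrix mouse genome arrays. Background correction and normalization were done by the authors with the GC-RMA algorithm, and the values they deposited are linear intensity values. The submitters' processing notes name GCRMA, and its version is not given in the sources used here. Here log2 was taken without a pseudocount. Arrays have no read depth, and their number and the signal over background limit the precision.

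Differences were fitted in limma 3.58.1 under R 4.3.3, with lmFit and eBayes, all 12 arrays and 1 mean per group. Tests were two-sided, with Benjamini-Hochberg adjustment over 20897 probe sets and a cut at 0.05. Standard errors are the moderated ones. The 4 groups shared 1 estimate of the spread. Standard errors, intervals and p-values given for 24 hrs therefore also carry the spread of the 6 hrs arrays, including that between days 3 and 4. The script was tested on simulated data. Tables and figures were made with Python 3.11.15, pandas 2.3.3 and matplotlib 3.10.9. Hybridization days were read from the array information files, in which both 6 hrs arrays of replicate 4 bear the number 3. To see whether the numbers pair the arrays, each array was centred on its group mean and DEX arrays were correlated with the vehicle array of the same number. The correlations were 0.681, 0.632 and 0.863 at 6 hrs and 0.158, 0.301 and 0.220 at 24 hrs, so the numbers were taken as pairs within a time point. Arrays of unlike number on the same day gave 0.571 and 0.506 at 6 hrs and 0.00825 and 0.0181 at 24 hrs. At 6 hrs a shared number and a shared day can thus hardly be told apart. Across times the correlations of same-numbered arrays were -0.0434 to 0.0892, and no pairs were made across times for DEX against vehicle. For 24 against 6 hrs in vehicle the alternative block was the replicate number across times, which these correlations did not bear out.

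Of the probe sets 34958 had 1 symbol, 932 had several and 9211 had none listed. Where a gene had several expressed probe sets, the one with the highest mean stood for it. The members, gene lists and tests were chosen with earlier results of these data known. All members were named. From each other list the rule took up to 3 genes that passed, or else the 1 with the smallest p over both times, and others are marked where they occur. The alternatives were the pairs or day as a block, the arrays of 1 time only, other expression minimums, 16 added before log2, median centring, quantile normalization, an intensity trend with a robust prior, the methods' Welch test, leaving out 1 array, other probe sets and single days.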

Additional observations from a re-analysis of the deposited data

Results flagged for a closer look

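For 2 probe sets of Fgfr1 all 3 pairs of arrays were higher with DEX at 6 hrs and all 3 were lower at 24 hrs, a pattern met, in either order, by 5.87% of all probe sets tested. For 1436551_at the log2 difference between the DEX effects, that of 24 hrs less that of 6 hrs, was -1.03 (limma unadjusted p = 0.00500, adjusted p = 1.00). Its pairs ran from 0.02 to 0.88 at 6 hrs and from -0.79 to -0.37 at 24 hrs. For 1425911_a_at it was -0.30 (limma adjusted p = 1.00), with pairs from 0.02 to 0.30 and from -0.28 to -0.03.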

How the results depend on the processing

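In no setting did a member pass the threshold for DEX against vehicle, and the pairs as a block changed none of these calls. With the pairs as a block the adjusted p of Fgfr2 over both times was 0.0772. For 24 against 6 hrs in vehicle the number of members called was 0 to 2 when 1 array was left out. Of 924 recomputed member values 862 kept their direction and side of the threshold, 55 reversed (38 with 1 array left out), 5 moved within a single day and 2 passed.

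The count of all probe sets called at 6 hrs, 24 hrs and over both times was 47, 60 and 156, and it was 189, 449 and 668 with the pairs as a block, 198, 455 and 600 with the day as a block and 18, 22 and 73 without an expression minimum. The Welch test called 0, 0 and 38, and the arrays of 1 time alone gave 0 and 163. Leaving out 1 array gave 18 to 38, 16 to 88 and 90 to 156. For 24 against 6 hrs in vehicle it was 2, and it was 1382 with the replicate number as a block across the times. It was 94 with the stricter minimum, 37 with 16 added, 85 after quantile normalization, 33 with the intensity trend and 0 to 6623 with 1 array left out. Without the 4 arrays of day 3, an alternative chosen after seeing the data that leaves 1 array per treatment at 6 hrs, assumed to vary like the others, the counts were 163 at 24 hrs, 8 for the difference of the DEX effect and 211 for 24 against 6 hrs in vehicle.

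These values reversed, and the cause was not tested. By probe set, Fgfr1 was 0.16 (1425911_a_at) and 0.39 (1436551_at) at 6 hrs, -0.14 and -0.64 at 24 hrs, -0.12 (1436551_at) over both times and -0.30 and -1.03 for the difference between the times. Fgfrl1 by 1451912_a_at was -0.07 at 6 hrs, and Fgf7 by 1422243_at was 0.15 for 24 against 6 hrs. Without day 3 Fgfr3 was -0.02 at 6 hrs and -0.41 for 24 against 6 hrs, Fgfr1 -0.20 and Fgf13 0.04 over both times, Fgfrl1 -0.05 for the difference between the times and Spry4 -0.49 for 24 against 6 hrs. In that comparison Spry1 was -0.06 after median centring and -0.21 after quantile normalization, which gave Spry4 -0.08.

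With 1 array left out the ranges that crossed 0 at 6 hrs were -0.54 to 0.50 for Fgfr1, -0.08 to 0.45 for Fgfr3, -0.13 to 0.22 for Fgfrl1, -0.74 to 0.04 for Fgf7, -0.03 to 0.46 for Spry1, -0.14 to 0.08 for Spry2, -0.02 to 0.12 for Fgf13 and -0.25 to 0.50 for Ihh. At 24 hrs they were -0.29 to 0.16 for Fgf7 and -0.50 to 0.16 for Spry4, and over both times -0.20 to 0.32 for Fgfr1 and -0.08 to 0.01 for Fgf13. For the difference between the times they were -0.36 to 0.68 for Fgfr1, -0.18 to 0.17 for Fgfr2, -0.08 to 0.27 for Fgfrl1, -0.08 to 0.70 for Fgf7 and -0.22 to 0.52 for Spry4. For 24 against 6 hrs in vehicle they were -0.01 to 0.51 for Fgfr3, -0.21 to 0.34 for Spry1 and -0.14 to 0.58 for Spry4. Precision is limited by 3 arrays per group and, for Fgf2, Fgf18 and Spry4, by intensities near or under 50.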

Other observations

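The other 5 probe sets of the members under the expression minimum were fitted only without that minimum, and none passed in any comparison there (limma adjusted p from 0.253 to 1.00). Fgfr2 1443211_at read from 10.4 to 38.2 over the 12 arrays and Spry2 1421656_at from 17.4 to 43.9. Spry4 1445669_at read from 20.7 to 76.0, 1422020_at from 1.49 to 31.0 and 1422021_at from 2.40 to 22.3.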
